A study of Mus musculus with 22 samples.

Results

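The genes described here are 44 genes of the core autophagy machinery, measured in sorted pancreatic β-cells of the mouse. A rule on gene symbols took the kinases, lipid enzymes, conjugation enzymes, ATG8 proteins, cargo receptors and transcription factors that build or direct the autophagosome, and it matched 45 of the 52327 symbols of the deposited count table. Of these, 44 had 10 or more counts in at least 5 of the 22 libraries and were kept. Atg9b was left out, with 20 counts over all libraries and at most 8 in any of them. The kept gene nearest to that limit was Tfeb, with 1660 counts in all and at least 37 in every library. All 44 kept genes also passed the expression filter of edgeR and were tested among 14064 genes.

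The study asked what β-cells do when the other endocrine cells of the islet are gone, and how this plays out in the fasted and the fed state. β-cells were sorted from 22 male mice, 3 months old and of mix background. Every mouse, controls included, had the genotype GluDTR+, SstDTR htz, PpyDTR htz, in which the receptor for diphtheria toxin (DT) is placed in α-, δ- and γ-cells so that the toxin kills them. Mice labelled DT or Control were sampled 1 month post ablation; all had fasted for 8 h, and part of them had then been refed for 2 h. This gave fasted control mice (n = 5, mice 1 to 5), fasted DT mice (n = 6, mice 6 to 11), refed control mice (n = 5, mice 12, 18, 19, 21 and 22, the order in which their values are given) and refed DT mice (n = 6, mice 13 to 17 and 20). The labels do not say whether the controls received an injection. Each library came from its own mouse, so the spread within a group is the spread between animals. In bulk RNA from sorted cells, fewer cells of a type and less RNA per cell cannot be told apart.

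Autophagy wraps part of the cytoplasm in a growing double membrane and delivers it to the lysosome. When nutrients are short, the kinase mTORC1 releases the ULK complex, which starts the process. A PI3-kinase complex around Beclin 1 then marks the site with the lipid PI3P, WIPI proteins read that lipid, and ATG2, ATG9 and VMP1 bring in membrane lipid. Conjugation enzymes attach ATG8 proteins (the LC3 and GABARAP families) to the membrane, where cargo receptors such as p62 dock with what is to be degraded. In β-cells autophagy is known to clear damaged organelles and insulin granules, and mice lacking it in β-cells lose glucose tolerance. TFEB and TFE3 are transcription factors that switch on lysosome and autophagy genes when they enter the nucleus, by binding the sequence TCACGTGA, the core of what is called the CLEAR element. A level of mRNA shows neither the amount of protein nor the rate of autophagy.

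Short motifs were searched on both strands of the promoter windows of RefSeq (250 bases before to 50 after an annotated start, build GRCm38.p6), which hold 36 of the 44 genes in 45 windows. The sequences of the genes with a match wholly upstream of the start are shown, and the matched letters are in capitals. TCACGTGA was found for 1 gene, Atg3, and stood in 0.974% of all 32851 windows. CACGTG, the E-box, which is also the middle of TCACGTGA, was found for 4 genes, Atg3, Atg5, Atg7 and Atg14, and in 7.15% of all windows. TGACGTCA, the cAMP response element, was found for 2, Atg5, where it spans the start, and Atg16l2, and in 1.79% of all windows. GTAAACA, a FoxO motif, was found for 0 of the 36 genes and in 3.65% of all windows. Counted by window, as for all promoters, these 4 motifs stood in 1, 4, 2 and 0 of the 45 windows, in this order. The stretches below are on the strand of the gene, 5′ to 3′, and leave out annotated exons. The exceptions are Atg5 and Atg16l2, where the match overlaps an annotated exon and 30 bases around the match are given. The Atg7 stretch precedes a start inside the annotated gene. A match is a string of letters and says nothing of binding.
Atg3 (chr16:45158707-45158784, + strand): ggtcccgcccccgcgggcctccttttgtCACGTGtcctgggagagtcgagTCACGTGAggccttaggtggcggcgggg
Atg5 (chr10:44268309-44268338, + strand): agggcggagcgcttgcCACGTGgtcttggt
Atg7 (chr6:114670946-114671095, + strand): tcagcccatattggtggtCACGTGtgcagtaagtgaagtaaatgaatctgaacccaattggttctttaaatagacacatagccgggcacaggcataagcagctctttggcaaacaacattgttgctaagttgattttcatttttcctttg
Atg16l2 (chr7:101302089-101302118, − strand): ctgctgccgcccTGACGTCAtggagtcccc

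The libraries held 16584117 to 24988880 counts, and the 44 genes took 0.104% of them in refed DT mouse 13 and 0.202% to 0.317% in the others. No pair of the 231 pairs of libraries was identical, and their correlations across genes ranged from 0.877 to 0.982. The 10 β-cell markers looked up (Ins1, Ins2, Iapp, Pdx1, Mafa and others) had counts in all groups, and summed endothelial and stellate markers stayed at or below 16.8 CPM (counts relative to the TMM-scaled library size). Of 6 α-cell markers 4 had counts in each DT group, and their summed level had medians of 239 CPM (110 to 375) in fasted control, 138 CPM (104 to 155) in fasted DT, 268 CPM (175 to 298) in refed control and 117 CPM (79.5 to 169) in refed DT mice. Summed δ-cell markers had medians of 44.3, 16.5, 67.3 and 18.3 CPM, γ-cell markers of 19.9, 9.78, 97.1 and 36.8 CPM and duct markers of 418, 379, 333 and 396 CPM in the same order. Acinar markers were present in all groups, with medians of their summed level of 3475 CPM (94.8 to 9908) in fasted control, 1774 CPM (76.5 to 14219) in fasted DT, 9059 CPM (972 to 16578) in refed control and 6252 CPM (47.2 to 25313) in refed DT mice. With the acinar level as a covariate 3 of the calls named below were lost: Tax1bp1 for refeeding in control mice, Atg4a for refeeding in DT mice and Optn for the average feeding effect. Refed DT mouse 13 stood apart, with 69.4% of its counts in the insulin genes against 40.3% to 51.1% in the other libraries and a TMM factor of 0.566, and so did refed DT mouse 20, with 1.59% of counts in mitochondrial transcripts and 453 CPM of summed immune-cell markers. These markers also reached 353.5 CPM in fasted DT mouse 7 and 181 CPM in fasted control mouse 1, and at most 96.9 CPM in the other mice. Calls that were gained or lost without mouse 13, without mouse 20 or only without both are named beside the gene. For refeeding, some changes seen without mouse 13 were also seen without both mice. These were the losses of Atg12 and Sqstm1 and the gain of Vmp1 in DT mice. In control mice they were the gains of Pik3c3, Gabarap, Atg16l1 and Atg5.

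Within the machinery, levels per kilobase of exon differed widely in fasted control mice. Sqstm1, which encodes the receptor p62 for ubiquitin-tagged cargo, was highest at 172 ± 13.5 CPM per kb (mean ± SD, n = 5). Gabarap at 117 ± 10.2 and Gabarapl1 at 71.9 ± 14.4 CPM per kb followed, and the intervals of 1 SD around these 3 means did not meet. Next came a cluster whose SDs overlapped between neighbours: Atg13 (27.3 ± 4.33), Map1lc3a (26.8 ± 11.6), Nbr1 (26.2 ± 2.87), Gabarapl2 (24.9 ± 1.75) and Map1lc3b (20.3 ± 4.87 CPM per kb). Genes of receptors and ATG8 proteins filled 7 of the 8 highest places. Tax1bp1 came next at 16.2 ± 0.297 CPM per kb, within 1 SD of Map1lc3b. The length used is that of all annotated exons merged, 9.991 kb for Tax1bp1, whose longest coding transcript has 3285 bases. The order depends on that choice. The kinases Ulk1 (2.93 ± 1.75) and Ulk2 (3.29 ± 2.303 CPM per kb) were in the lowest 10, and the lowest 2 were the tether Epg5 at 1.81 ± 0.307 and Tfeb at 0.671 ± 0.203 CPM per kb. Tfe3, at 3.45 ± 0.324 CPM per kb, was the more abundant of the pair of transcription factors. Atg4a matched Atg4a-ps elsewhere in the genome at 99.3% over 2115 bases, and Gabarapl2 matched Gm3724 at 99.4% over 349 bases, so the counts of both are uncertain.

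Most of the differences in these genes lay between fasted and refed mice. In control mice 13 of the 44 genes (29.5%) were lower and 3 (6.82%) higher after 2 h of refeeding than after the fast, beside 12.3% lower and 10.9% higher among all 14064 genes tested. In DT mice 16 (36.4%) were lower and 2 (4.55%) higher, beside 13.5% lower and 10.8% higher among all genes. Called, rose and fell mean here a Benjamini-Hochberg adjusted p under 0.05 in edgeR's quasi-likelihood F test, fitted on all genes and all 22 mice; every adjusted p below is from that fit. The median log2 fold change of the 44 genes was −0.14 in control mice and −0.25 in DT mice, against −0.04 and −0.06 over all genes. Without refed DT mice 13 and 20 the DT comparison had 13 lower and 5 higher, and its median was −0.09 against −0.02 over all genes. All 8 acinar markers were above 0 in both feeding comparisons and 0 of them were called, with 0 at an unadjusted p under 0.05. Other marker lists held calls: of 3 α-cell markers tested 1 was lower in each comparison, of 4 duct markers 1 was lower in control mice, and of 2 γ-cell markers 1 was higher in DT mice and 2 in the average of both treatments (medians 1.84 and 1.55). Of the 10 β-cell markers, 1 was higher and 2 lower in control mice and 2 higher and 2 lower in DT mice. The part of other cells in the feeding differences was not tested.

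**Figure D1:**
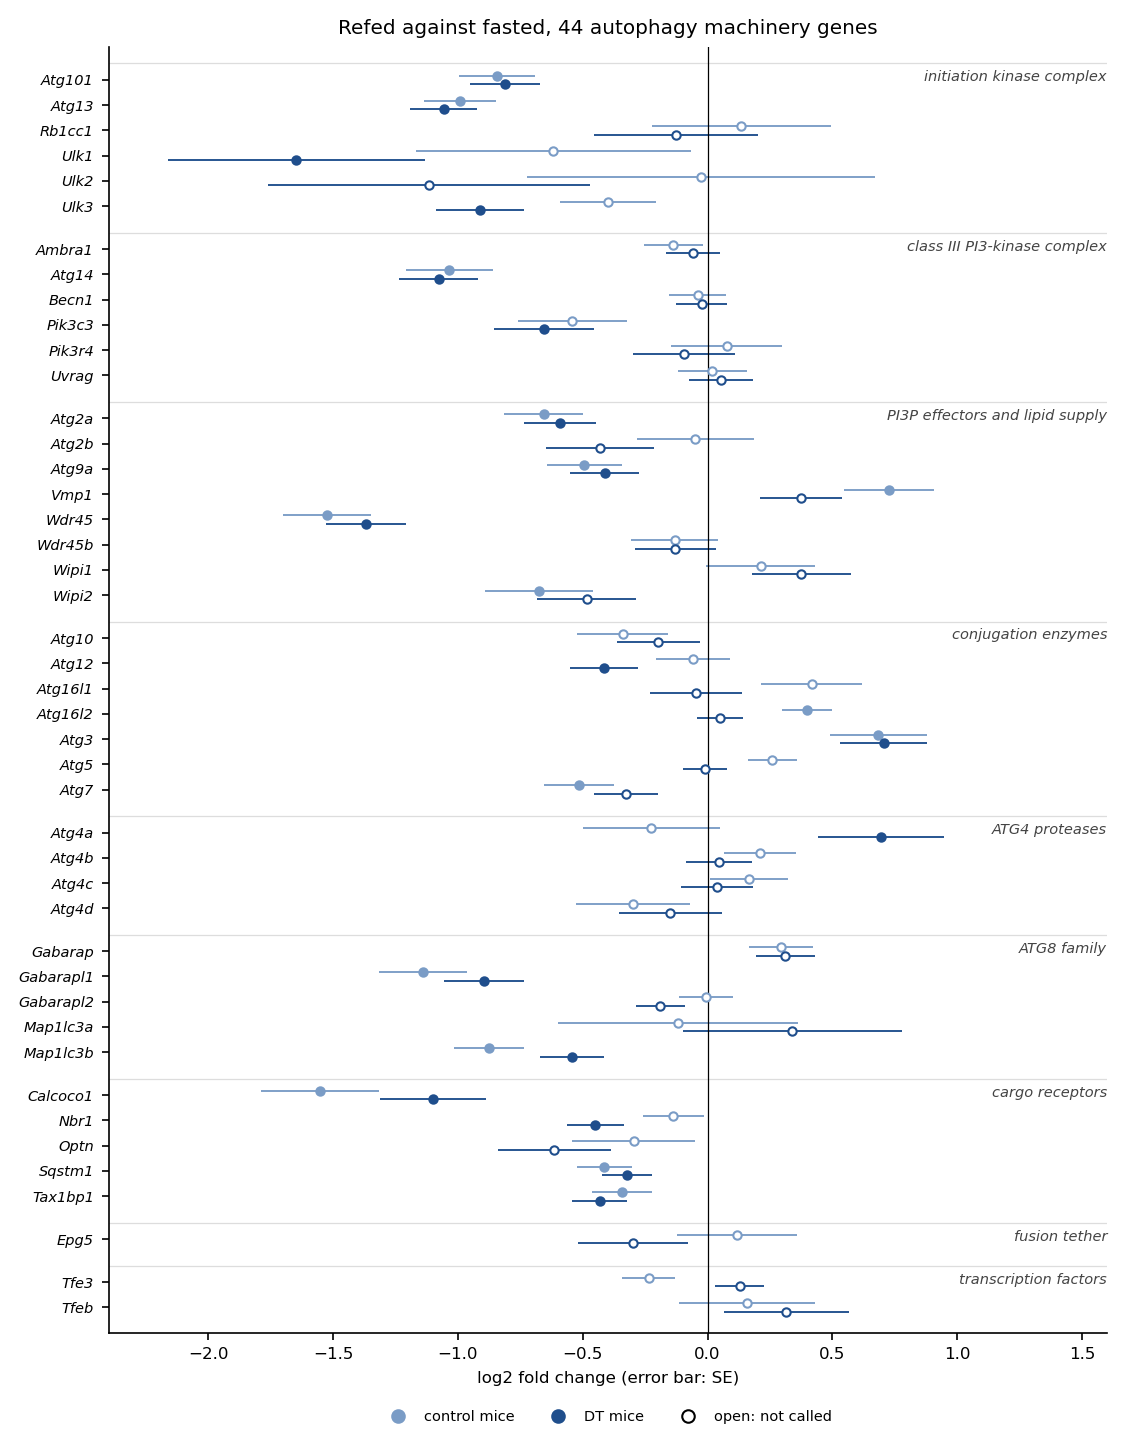
Log2 fold change, refed against fasted, of each of the 44 genes (x axis, error bar 1 SE), grouped by role, in control mice (light) and DT mice (dark). Filled points were called at an adjusted p under 0.05. Wdr45, Atg13, Atg14, Atg101, Gabarapl1 and Calcoco1 lie left of 0 in both, and Atg3 right of 0 in both.

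The initiation complex joins a kinase, ULK1 or ULK2, to the scaffold FIP200 (Rb1cc1) and to the adaptor pair ATG13 and ATG101, and the adaptor pair fell in both feeding comparisons. Atg13 (chr2:91674612-91710597) stood at 102, 151, 111, 119.8 and 112 CPM in fasted control mice 1 to 5 and at 50.2, 65.4, 61.4, 67.9 and 54.7 CPM in refed control mice. In DT mice the lowest, median and highest Atg13 levels were 108, 127 and 141 CPM fasted and 42.1, 58.7 and 75.9 CPM refed. Every refed mouse was below every fasted mouse in both treatments, with log2 fold changes of −0.99 ± 0.15 (SE; adjusted p = 5.45e-05) in control and −1.06 ± 0.13 (adjusted p = 1.03e-05) in DT mice. Atg101, which steadies ATG13, was at 17.9, 16.2, 17.6, 17.1 and 20.7 CPM in fasted and 9.55, 9.31, 8.94, 11.5 and 10.6 CPM in refed control mice. The DT mice had lowest, median and highest levels of 13.3, 15.7 and 17.97 CPM fasted and 6.58, 8.46 and 12.7 CPM refed. These groups did not overlap either, at −0.84 ± 0.15 (adjusted p = 0.000426) in control and −0.81 ± 0.14 (adjusted p = 0.000264) in DT mice.

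Among the kinases, Ulk3, a relative of ULK1, ran from 23.7, 29.9 and 34.1 CPM (lowest, median, highest) in fasted DT mice to 11.7, 16.2 and 21.8 CPM in refed DT mice. These groups did not overlap, and Ulk3 fell, with a log2 fold change of −0.91 ± 0.18 (adjusted p = 0.000756). In control mice its log2 fold change was −0.40 ± 0.19 (adjusted p = 0.144) and the groups overlapped, with fasted mouse 3 far above the other 4. Ulk1, the kinase that receives the nutrient signal, was at 25.4, 35.1, 17.2, 7.67 and 9.83 CPM in fasted and 7.99, 16.2, 21.4, 6.36 and 9.91 CPM in refed control mice. In DT mice its lowest, median and highest levels were 7.59, 25.01 and 53.9 CPM fasted and 3.95, 7.42 and 14.2 CPM refed. The fasted groups were each split into high and low mice, and both pairs of groups overlapped. Ulk1 fell in DT mice (−1.65 ± 0.51, adjusted p = 0.0233), a call lost without mouse 9, 11, 16 or 20 and also without mice 13 and 20 together (−1.57, adjusted p = 0.0561). In control mice its value was −0.62 ± 0.55 (adjusted p = 0.463). Ulk2 (−0.03 ± 0.70 in control, −1.12 ± 0.65 in DT mice) and Rb1cc1 (0.14 ± 0.36 and −0.13 ± 0.33) did not pass, and the large errors of Ulk1, Ulk2 and Rb1cc1 are taken up below.

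Of the 6 genes of the class III PI3-kinase complex, the subunit that makes the complex specific to autophagy was the one that fell in both treatments. Atg14 (chr14:47540893-47568434), which directs the kinase to the site of membrane growth, was at 13.8, 11.9, 16.5, 16.3 and 22.3 CPM in fasted and 10.2, 5.498, 7.87, 8.72 and 7.12 CPM in refed control mice. Among DT mice, the lowest, median and highest were 13.4, 17.7 and 19.6 CPM fasted and 6.703, 8.22 and 9.597 CPM refed. All refed mice lay below all fasted mice of their treatment, and the log2 fold changes were −1.03 ± 0.17 (adjusted p = 0.000195) and −1.08 ± 0.16 (adjusted p = 5.36e-05). The E-box of its promoter window spans the annotated start, and exons of Gm49004 on the other strand cover 5.53% of the exonic length of Atg14. Pik3c3, the catalytic subunit VPS34, had a lowest, median and highest level of 19.4, 22.3 and 31.1 CPM in fasted and 5.76, 16.5 and 21.3 CPM in refed DT mice. Mouse 13 was by far the lowest, and mouse 15 overlapped the fasted group. Pik3c3 fell in DT mice, with a log2 fold change of −0.66 ± 0.20 (adjusted p = 0.0199) and of −0.42 without mouse 13 (adjusted p = 0.0215); the call was lost without mouse 7. In control mice its log2 value was −0.54 ± 0.22 (adjusted p = 0.0781), with all refed mice below all fasted mice, and without mouse 13 it was called lower (−0.51, adjusted p = 0.00878).

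Beclin 1 itself showed no called change. Becn1 levels were 67.8 ± 5.67 CPM in fasted control, 65.9 ± 2.503 in refed control, 65.4 ± 3.31 in fasted DT and 64.3 ± 11.8 CPM in refed DT mice (mean ± SD), and the feeding values were −0.04 ± 0.11 (adjusted p = 0.838) and −0.02 ± 0.10 (adjusted p = 0.892). Exons of Cntd1 on the other strand cover 43.9% of the exonic length of Becn1, and since the strand setting of the counting is not given in the sources used here, reads from that stretch cannot be assigned with certainty. The other subunits, Pik3r4 (VPS15), Uvrag, which takes the place of ATG14 on endosomes, and Ambra1, had feeding values between −0.14 and 0.08 and were not called.

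PI3P readers and lipid carriers held the most significant change of the 44 genes. Wdr45 (chrX:7721987-7728201) encodes WIPI4, a PI3P-binding propeller that holds ATG2 at the growing membrane and whose human gene is mutated in a neurodegenerative disease with brain iron. An annotated gene on the same strand, Gm45208, overlaps 24.7% of its exonic length, and reads there cannot be assigned to either. It was at 11.6, 12.05, 10.8, 12.6 and 12.3 CPM in fasted and 5.16, 4.09, 3.29, 3.53 and 4.53 CPM in refed control mice. DT mice ran over 10.2, 13.3 and 14.6 CPM (lowest, median, highest) fasted and 3.35, 4.74 and 7.31 CPM refed. The lowest fasted mouse of either treatment was above the highest refed mouse of either. Wdr45 fell, with a log2 fold change of −1.52 ± 0.18 (adjusted p = 4.94e-06) in control and −1.37 ± 0.16 (adjusted p = 4.49e-06) in DT mice.

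The lipid-transfer protein gene Atg2a, whose product works with WIPI4, was at 27.4, 37.6, 46.4, 50.7 and 44.5 CPM in fasted and 24.98, 24.9, 29.1, 30.7 and 21.4 CPM in refed control mice. In DT mice Atg2a had a lowest, median and highest level of 33.2, 36.5 and 43.9 CPM fasted and 18.2, 26.9 and 28.97 CPM refed. Fasted control mouse 1 overlapped the refed control mice, and the DT groups did not overlap. Atg2a fell in both, at −0.66 ± 0.16 (adjusted p = 0.00442) and −0.59 ± 0.14 (adjusted p = 0.00483). Atg9a, the lipid scramblase of the vesicles that seed the membrane, was at 22.6, 24.1, 18.8, 23.5 and 22.3 CPM in fasted and 16.8, 17.6, 13.2, 16.3 and 15.1 CPM in refed control mice, with no overlap. In DT mice it ran over 18.4, 20.6 and 26.2 CPM (lowest, median, highest) fasted and 12.6, 15.7 and 24.6 CPM refed, where mouse 13 was high among low mice. Atg9a fell in both (−0.49 ± 0.15, adjusted p = 0.0214, and −0.41 ± 0.14, adjusted p = 0.0332), but Gm29253 overlaps 31.8% of its exonic length on the same strand. The control call was lost without mouse 4 or 19 and the DT call without mouse 4, 6, 11, 14, 15, 16, 17 or 20. The DT call was also lost with DESeq2 size factors, in DESeq2 itself, with no filter on low counts and with only the 2 groups compared.

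Wipi2, the reader that recruits ATG16L1, was at 89.1, 107, 112, 92.01 and 103 CPM in fasted and 68.7, 65.9, 58.2, 67.8 and 53.6 CPM in refed control mice. No refed control mouse reached a fasted one, and Wipi2 fell, with a log2 fold change of −0.68 ± 0.22 (adjusted p = 0.0263), a call lost without mouse 2, 3, 19 or 22. In DT mice its value was −0.48 ± 0.20 (adjusted p = 0.077). There Wipi2 was called lower without mouse 8 (−0.61, adjusted p = 0.0129) or mouse 14 (−0.58, adjusted p = 0.0463). Vmp1, an ER-resident scramblase needed for the membrane to grow, went the other way. It was at 36.6, 52.6, 40.01, 39.3 and 40.4 CPM in fasted and 63.4, 73.7, 73.7, 66.8 and 67.9 CPM in refed control mice. All refed control mice were above all fasted ones, and Vmp1 rose, with a log2 fold change of 0.73 ± 0.18 (adjusted p = 0.00573). In DT mice, with 30.9, 45.2 and 58.03 CPM (lowest, median, highest) fasted and 30.4, 61.6 and 71.1 CPM refed, mouse 13 was the lowest refed mouse and the groups overlapped. The DT value was 0.37 ± 0.17 (adjusted p = 0.106), and 0.57 without mouse 13 (adjusted p = 0.00233). Wipi1, Wdr45b and Atg2b did not pass in either comparison, with values between −0.43 and 0.38. Without mouse 8, Atg2b was called lower in DT mice (−0.55, adjusted p = 0.0397).

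**Figure D2:**
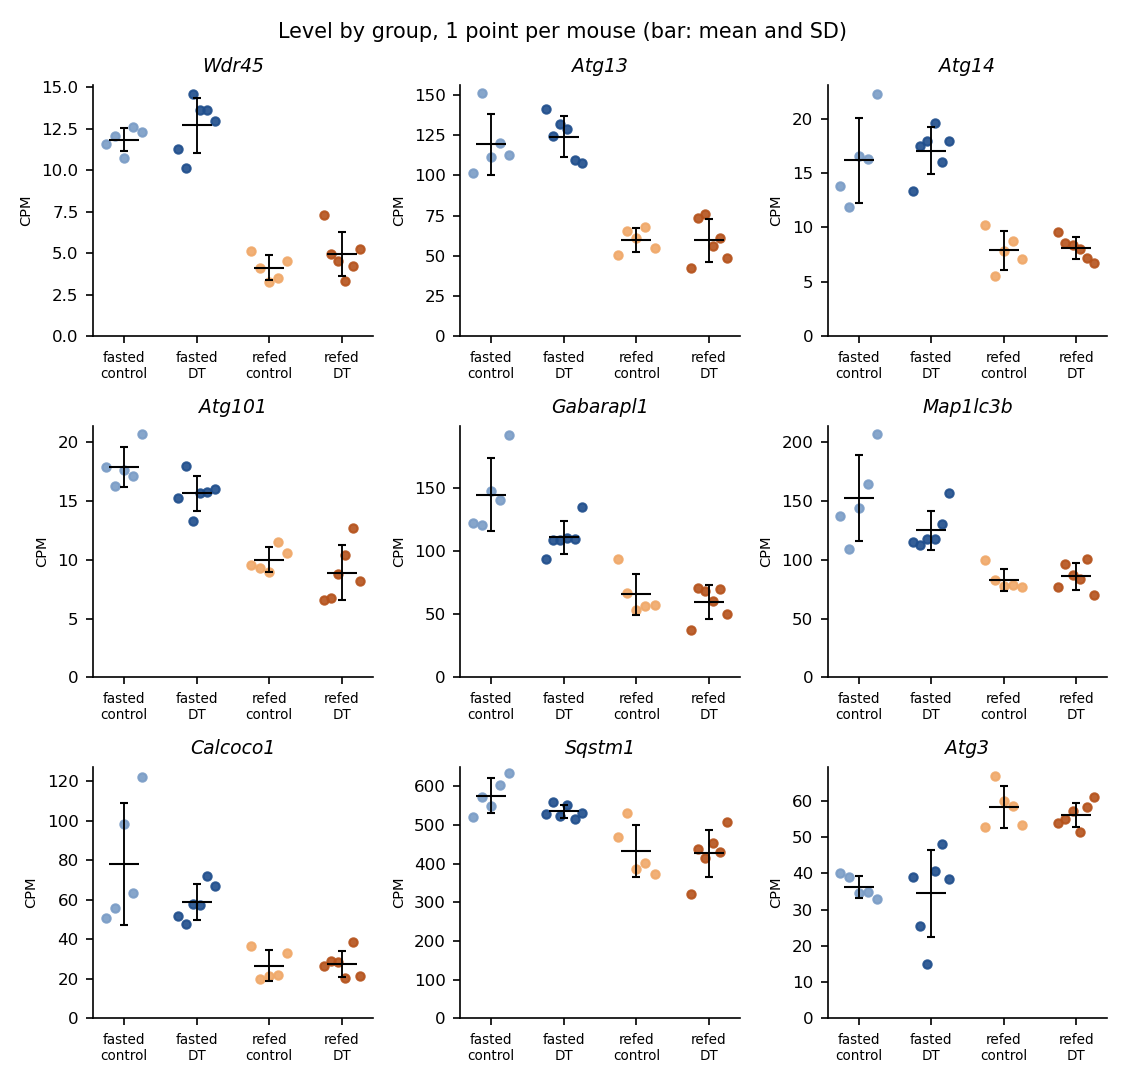
Level in CPM (y axis, from 0) of 9 genes in each of the 4 groups, 1 point per mouse, with the mean and SD as bars. Refed mice lie below fasted mice of the same treatment for Wdr45, Atg13, Atg14, Atg101, Gabarapl1, Map1lc3b and Calcoco1, and above them for Atg3; Sqstm1 has a smaller change, with refed control mouse 18 among the fasted control values.

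The 7 conjugation enzymes did not move as a block. Atg3 (chr16:45158829-45188538), the E2-like enzyme that hands the ATG8 protein to its lipid, and the gene with TCACGTGA upstream, was at 40.01, 38.9, 34.7, 34.9 and 32.95 CPM in fasted and 52.7, 66.9, 59.9, 58.6 and 53.5 CPM in refed control mice. Fasted DT mice had 15.04, 38.7 and 48.1 CPM (lowest, median, highest) and refed DT mice 51.5, 56.2 and 61.1 CPM. Refed mice were above all fasted mice of their treatment, and Atg3 rose, with a log2 fold change of 0.68 ± 0.19 (adjusted p = 0.0126) and 0.70 ± 0.18 (adjusted p = 0.00563). Atg7, the E1-like enzyme that activates both ATG8 and ATG12, was at 24.1, 21.1, 17.6, 19.2 and 24.1 CPM in fasted and 18.98, 12.7, 12.6, 13.01 and 16.97 CPM in refed control mice. Only refed mouse 12 overlapped the fasted group, and Atg7 fell, with a log2 fold change of −0.52 ± 0.14 (adjusted p = 0.0102). In DT mice the value was −0.33 ± 0.13 (adjusted p = 0.0663), and without mouse 16 it was −0.39 and called (adjusted p = 0.0471). Genes that act one after the other on the same substrate thus had called changes of opposite sign in control mice.

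Atg12, the ubiquitin-like protein joined to ATG5, had lowest, median and highest levels of 15.9, 18.9 and 20.9 CPM in fasted and 8.23, 14.5 and 17.05 CPM in refed DT mice. The groups overlapped and mouse 13 was the lowest. Atg12 fell in DT mice, with a log2 fold change of −0.41 ± 0.14 (adjusted p = 0.03), but without mouse 13 the value was −0.23 and not called (adjusted p = 0.101); the call was also lost without mouse 4, 6, 7, 10 or 20. In control mice it was −0.06 ± 0.15 (adjusted p = 0.823). Atg5, the partner of ATG12, stood at 31.01 ± 2.77 CPM in fasted and 37.1 ± 1.76 CPM in refed control mice (mean ± SD, n = 5), with no overlap, and its value of 0.26 ± 0.10 had an adjusted p of 0.0558. Without mouse 4 the control value of Atg5 was 0.35 and called (adjusted p = 0.028). In DT mice Atg5 was at −0.01 ± 0.09 (adjusted p = 0.944). Atg16l1, which places the conjugate on the membrane, had values of 0.42 ± 0.20 (adjusted p = 0.148) and −0.05 ± 0.18 (adjusted p = 0.879). Without mouse 13, whose Atg16l1 level of 15.8 CPM lay far below the other refed DT mice (40.1 to 49.1 CPM), the control comparison called both Atg16l1 (0.45, adjusted p = 0.00414) and Atg5 (0.29, adjusted p = 0.02) higher after refeeding. Mouse 13 enters that comparison through the filter, the scaling and the shared estimate of spread, and not through its own level.

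The ATG8 proteins differed within the family. Gabarapl1 (chr6:129533192-129542331) was at 123, 121, 148, 141 and 192 CPM in fasted and 94.03, 66.6, 53.7, 56.7 and 57.6 CPM in refed control mice. The DT mice had lowest, median and highest levels of 94.1, 109 and 135 CPM fasted and 37.5, 64.4 and 71.3 CPM refed. Fasted and refed mice did not overlap within either treatment, and Gabarapl1 fell, with a log2 fold change of −1.14 ± 0.18 (adjusted p = 9.26e-05) and −0.89 ± 0.16 (adjusted p = 0.000375). A transcript on the other strand, 1700101I11Rik, covers 28.3% of its exonic length. Map1lc3b (chr8:121590438-121598760), which encodes LC3B, the usual marker of autophagosomes, was at 138, 109, 144, 165 and 208 CPM in fasted and 99.6, 82.6, 78.1, 78.4 and 77.1 CPM in refed control mice. In DT mice Map1lc3b had a lowest, median and highest level of 113, 118 and 157 CPM fasted and 70.5, 85.1 and 101 CPM refed. Again no refed mouse reached a fasted mouse of its treatment, although refed control mouse 12 was well above the other 4. Map1lc3b fell, with a log2 fold change of −0.88 ± 0.14 (adjusted p = 0.000147) in control and −0.54 ± 0.13 (adjusted p = 0.00389) in DT mice, the latter at −0.37 and not called without mice 13 and 20 (adjusted p = 0.0522).

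Gabarap, the most abundant ATG8 gene, had the opposite sign, at 0.29 ± 0.13 (adjusted p = 0.109) in control and 0.31 ± 0.12 (adjusted p = 0.0584) in DT mice. Its levels were 216 ± 18.8 CPM in fasted control, 264 ± 20.04 in refed control, 209 ± 19.2 in fasted DT and 259 ± 61.3 CPM in refed DT mice (mean ± SD). Averaged over both treatments Gabarap rose, with a log2 fold change of 0.30 ± 0.09 (adjusted p = 0.00882). Without mouse 13 it was also called higher in control mice (0.33, adjusted p = 0.0199), and in DT mice it was called without mouse 4, 6, 13, 14, 15 or 17, with 0.26 without mouse 13 (adjusted p = 0.0489). Gabarapl2 (−0.01 ± 0.11 and −0.19 ± 0.10) and Map1lc3a (−0.12 ± 0.48 and 0.34 ± 0.44) were not called. Of the 4 ATG4 proteases, which trim ATG8 proteins before and after their use, Atg4a was called once, in DT mice. Its lowest, median and highest levels were 12.1, 13.9 and 16.2 CPM fasted and 9.96, 21.2 and 34.6 CPM refed, where mice 14, 15 and 17 were high and the other 3 within or below the fasted range. The value of 0.69 ± 0.25 (adjusted p = 0.0484) stayed called in 6 of the 22 fits that left out a mouse, those without mouse 2, 4, 5, 13, 16 or 20. Without mice 13 and 20 it was 1.08 (adjusted p = 0.000721). Atg4b, Atg4c and Atg4d had values between −0.30 and 0.21 and did not pass.

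All 5 cargo receptors had negative values in both feeding comparisons, and 3 passed in control and 4 in DT mice, beside 12.3% and 13.5% of all genes called lower and 7457 and 7658 of 14064 with a value below 0. Calcoco1 (chr15:102706777-102722178), a receptor for parts of the endoplasmic reticulum, was at 50.95, 55.8, 98.3, 63.3 and 122 CPM in fasted and 36.8, 20.1, 21.3, 21.96 and 32.96 CPM in refed control mice. Among DT mice, the lowest, median and highest were 47.5, 57.5 and 71.9 CPM fasted and 20.4, 27.5 and 38.6 CPM refed. Fasted mice varied widely, mice 3 and 5 being highest, yet all were above the refed mice of their treatment. Calcoco1 fell, with a log2 fold change of −1.55 ± 0.24 (adjusted p = 7.56e-05) in control and −1.10 ± 0.21 (adjusted p = 0.000756) in DT mice. Sqstm1 (chr11:50200152-50210820) was at 519, 573, 548, 603 and 635 CPM in fasted and 468, 531, 387, 400.3 and 373 CPM in refed control mice. In DT mice Sqstm1 had a lowest, median and highest level of 515, 529 and 559.8 CPM fasted and 321, 434 and 506 CPM refed. Refed control mouse 18 overlapped the fasted control mice, and the DT groups did not overlap. Sqstm1 fell, with a log2 fold change of −0.41 ± 0.11 (adjusted p = 0.00851) and −0.32 ± 0.10 (adjusted p = 0.0215). Without mouse 13 the DT value was −0.18 and not called (adjusted p = 0.119), and the call was also lost without mouse 4 or 7. Exons of Mrnip on the other strand cover 17.3% of Sqstm1.

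Tax1bp1, a receptor for ubiquitin-tagged aggregates, was at 163, 163, 158, 162 and 166 CPM in fasted and 124, 125, 129.6, 143 and 119 CPM in refed control mice. DT mice ran over 148, 154 and 165 CPM (lowest, median, highest) fasted and 68.7, 121 and 136 CPM refed. The fasted control values were tight, neither pair of groups overlapped, and mouse 13 was far below the other refed DT mice. Tax1bp1 fell, with a log2 fold change of −0.34 ± 0.12 (adjusted p = 0.0425) in control mice, a call that stayed in 13 of the 22 fits with a mouse left out (lost without mouse 1, 2, 3, 4, 5, 12, 18, 19 or 22). In DT mice it also fell (−0.43 ± 0.11, adjusted p = 0.0062), with a value of −0.25 without mouse 13 (adjusted p = 0.00307). Nbr1, a partner of p62, had lowest, median and highest levels of 171, 198 and 226 CPM in fasted and 103, 149.7 and 174 CPM in refed DT mice, where mouse 20 overlapped the fasted group. Nbr1 fell in DT mice (−0.45 ± 0.11, adjusted p = 0.00576; −0.30 without mouse 13, adjusted p = 0.0237). Its control value was −0.14 ± 0.12 (adjusted p = 0.466). Optn, optineurin, a receptor for damaged mitochondria, had values of −0.30 ± 0.25 (adjusted p = 0.426) and −0.61 ± 0.23 (adjusted p = 0.0513). In DT mice Optn was called lower without mouse 20 (−0.91, adjusted p = 0.00115), without mice 13 and 20 (−0.71, adjusted p = 0.00328) and without mouse 6 or 18.

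Neither transcription factor was called in a feeding comparison. Tfeb levels were 3.81 ± 1.15 CPM in fasted control, 4.24 ± 0.919 in refed control, 2.996 ± 0.785 in fasted DT and 3.72 ± 1.32 CPM in refed DT mice (mean ± SD), with feeding values of 0.16 ± 0.27 (adjusted p = 0.729) and 0.32 ± 0.25 (adjusted p = 0.393). Tfe3 had −0.24 ± 0.11 (adjusted p = 0.12) in control and 0.13 ± 0.10 (adjusted p = 0.365) in DT mice. Without mice 13 and 20 the DT value of Tfe3 was 0.29 and called (adjusted p = 0.031). Epg5, which tethers autophagosomes to late endosomes and lysosomes, was at 0.12 ± 0.24 and −0.30 ± 0.22 and was not called.

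The 2 feeding comparisons have no library in common, though they share 1 estimate of the spread. They shared 12 called genes, 11 lower in both (Wdr45, Atg13, Atg14, Atg101, Gabarapl1, Map1lc3b, Calcoco1, Atg2a, Atg9a, Sqstm1 and Tax1bp1) and 1 higher in both (Atg3). This is 75.0% of the 16 called in control and 66.7% of the 18 called in DT mice; over all genes the shared 2049 were 62.6% and 59.8%. Called in control mice alone were Atg16l2, Atg7, Vmp1 and Wipi2, and in DT mice alone Atg12, Atg4a, Nbr1, Pik3c3, Ulk1 and Ulk3. For none of these 10 did the difference between the feeding effects itself pass. That interaction called 0 of the 44 genes in edgeR, DESeq2 and limma voom alike, beside 0.00711% of all genes, and 3 genes had an unadjusted p under 0.05: Atg16l2 (−0.35 ± 0.14), Tfe3 (0.37 ± 0.15) and Atg4a (0.92 ± 0.37), with adjusted p = 0.611, 0.611 and 0.619.

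Averaged over control and DT mice, refeeding lowered 18 of the 44 genes (40.9%) and raised 4 (9.09%), beside 21.7% lower and 17.2% higher among all genes, with a median of −0.23 against −0.06. This average uses the same libraries as the 2 comparisons above and is no further evidence. By role, 4 of 6 initiation genes, 2 of 6 PI3-kinase genes, 4 of 8 PI3P and lipid genes, 1 of 7 conjugation enzymes, 2 of 5 ATG8 genes and 5 of 5 cargo receptors were lower. The 4 initiation genes were Atg13, Atg101, Ulk1 and Ulk3. Ulk3 is counted there as a relative of ULK1 and is not among the parts of the complex named above. The 4 higher ones were Vmp1, Atg3, Gabarap and Atg16l2. Gabarap and Optn were called in the average alone. For Optn (−0.46 ± 0.17, adjusted p = 0.0344) the call stayed in 13 of the 22 fits that left out a mouse (lost without mouse 3, 4, 5, 9, 11, 12, 13, 15 or 18). The average calls of Nbr1 and Ulk1 were lost without mouse 4 and mouse 2. Without mouse 13, Atg16l1 (0.32, adjusted p = 0.00194) and Atg5 (0.19, adjusted p = 0.0177) were called higher in the average, against 0.18 ± 0.14 and 0.12 ± 0.07 with it. Without mice 13 and 20 Atg4a was called higher as well (0.44, adjusted p = 0.019). Atg5 was also called higher in the average without mouse 4 (0.20, adjusted p = 0.0358), and Atg12 lower without mouse 17 (−0.27, adjusted p = 0.0423).

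Loss of the other endocrine cells was followed by far fewer differences. In fasted mice 1 of the 44 genes (2.27%) was called, beside 0.0284% of all genes, and in refed mice 0, beside 0.0356% of all genes. At an unadjusted p under 0.05 there were 4 of the 44 genes in fasted and 4 in refed mice, beside 1172 and 1410 of all 14064 genes, and DESeq2 and limma voom also called 0 in refed mice. The average of both DT effects called 1 gene, beside 0.206% of all genes. Of 3 δ-cell markers tested 1 was called lower in each feeding state, and 2 of the 3 were above 0 in refed mice. Among 3 α-cell markers 0 were called in either state, and 1 was above 0 in each. In the average 1 δ-cell and 1 α-cell marker were called lower. The 2 γ-cell markers tested were below 0 in each state and not called.

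**Figure D3:**
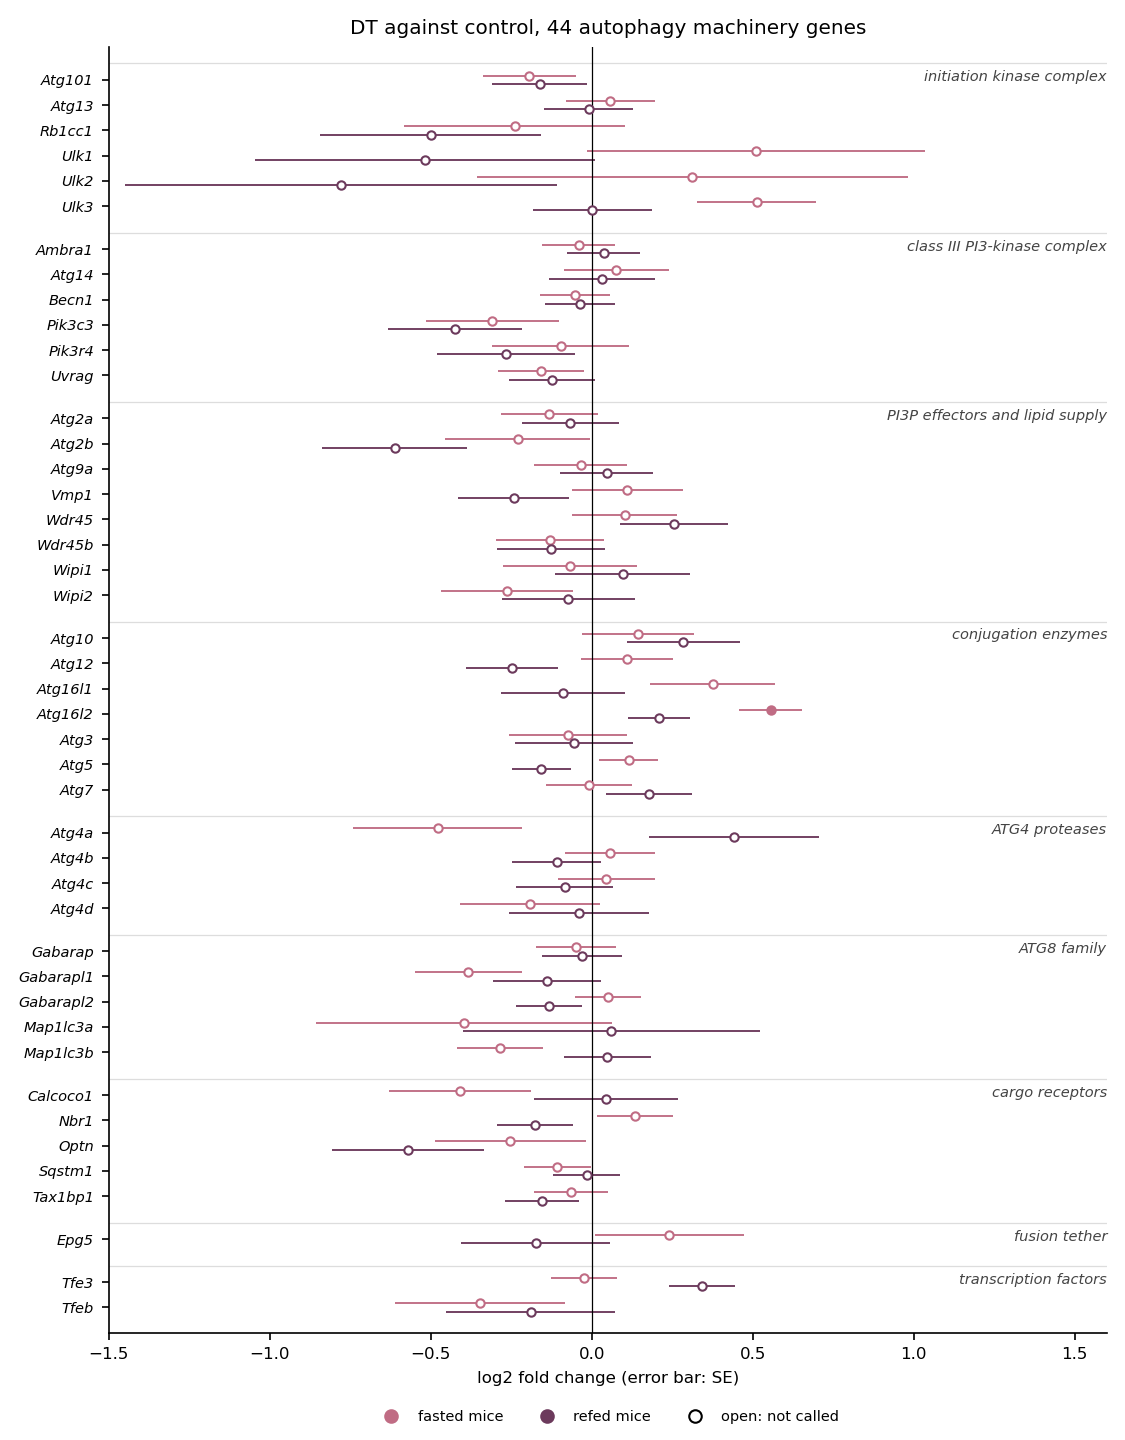
Log2 fold change, DT against control, of each of the 44 genes (x axis, error bar 1 SE), grouped by role, in fasted (pink) and refed mice (purple). Atg16l2 in fasted mice is the single filled point, that is, the single call at an adjusted p under 0.05.

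That gene was Atg16l2 (chr7:101286325-101302267, − strand), a paralog of Atg16l1 that also binds the ATG12–ATG5 conjugate and has TGACGTCA in its promoter window. It was at 25.5, 34.98, 32.8, 31.3 and 32.99 CPM in fasted control mice and at 42.8, 45.2, 39.3, 40.8 and 39.6 CPM in refed control mice. In DT mice the lowest, median and highest Atg16l2 levels were 39.9, 45.9 and 56.4 CPM fasted and 42.5, 47.98 and 52.8 CPM refed. The fasted control mice were the lowest 5 of all 22, so both DT and refeeding came with higher values, while the other 3 groups overlapped. The log2 values were 0.56 ± 0.10 for DT in fasted mice (adjusted p = 0.039), 0.21 ± 0.10 for DT in refed mice (adjusted p = 0.482), 0.40 ± 0.10 for refeeding in control mice (adjusted p = 0.00666) and 0.05 ± 0.09 for refeeding in DT mice (adjusted p = 0.736). The DT and feeding values of control mice share the fasted control libraries. Which of these comparisons passed was uneven: the refeeding call in control mice stayed in all 22 fits that left out a mouse, the DT call in fasted mice in 5 of them, with values from 0.49 to 0.60 and adjusted p up to 0.200. Those 5 were the fits without mouse 3, 7, 11, 13 or 14, and the call was also lost with DESeq2 size factors, with no filter on low counts, with 1 surrogate variable and with only the fasted mice fitted. The average DT effect was 0.38 ± 0.07 (adjusted p = 0.0267) and stayed called in 15 of 22 (lost without mouse 1, 4, 6, 8, 12, 19 or 22). Atg16l1 showed 0.38 ± 0.19 (adjusted p = 0.645) in fasted and −0.09 ± 0.19 (adjusted p = 0.917) in refed mice.

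**Figure D4:**
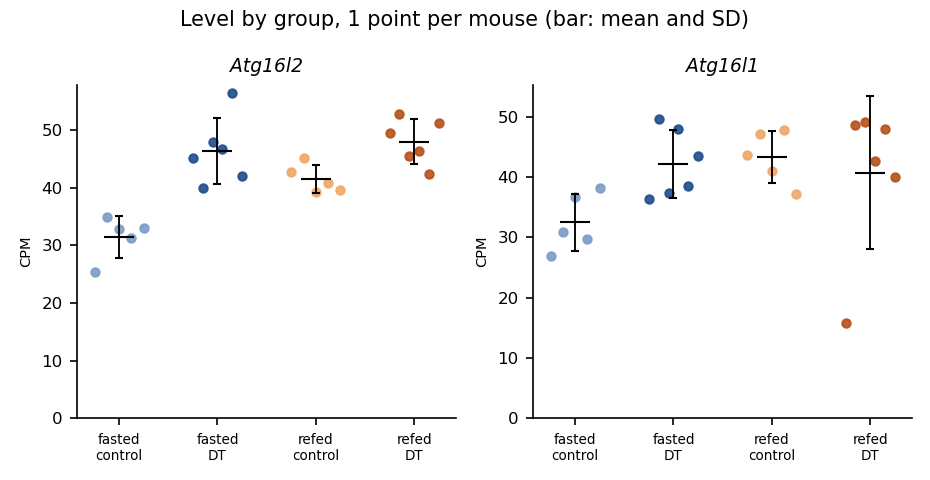
Level in CPM (y axis, from 0) of Atg16l2 and its paralog Atg16l1 in the 4 groups, 1 point per mouse, with the mean and SD as bars. The 5 fasted control mice are below all others for Atg16l2; for Atg16l1 the groups overlap, and the single low refed DT point is mouse 13.

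Next to Atg16l2, the smallest p for DT in fasted mice belonged to Ulk3 (0.51 ± 0.18, adjusted p = 0.466) and Gabarapl1 (−0.38 ± 0.17, adjusted p = 0.546). In refed mice Tfe3 was at 24.6, 24.8, 30.9, 30.4 and 25.2 CPM in control mice and at 29.1, 34.00 and 40.00 CPM (lowest, median, highest) in DT mice. The groups overlapped, with 0.34 ± 0.10 (adjusted p = 0.243). Atg2b, the other ATG2 gene, was at 39.98, 33.99, 37.6, 50.1 and 36.7 CPM in refed control and 19.1, 27.4 and 33.9 CPM in refed DT mice; these groups just missed each other, DT being lower, and the value of −0.61 ± 0.23 did not pass (adjusted p = 0.347). Optn was at 17.3, 11.2, 20.1, 20.1 and 19.9 CPM in refed control and 6.22, 10.8 and 22.9 CPM in refed DT mice, where mouse 20 was the highest and the other 5 reached at most 11.7 CPM. Its value was −0.57 ± 0.24 (adjusted p = 0.411). Without mice 13 and 20, Tfe3 was called higher (0.44, adjusted p = 0.0357) and Optn lower (−0.73, adjusted p = 0.0418) in refed DT mice, so 2 genes were called in place of 0. Optn was called there without mouse 20 alone (−0.87, adjusted p = 0.0456), and in the average DT effect without both mice (−0.50, adjusted p = 0.0471). For the landmarks of the pathway no DT value passed: Sqstm1 −0.11 ± 0.10 fasted and −0.02 ± 0.11 refed, Becn1 −0.05 ± 0.11 and −0.04 ± 0.11, Atg9a −0.03 ± 0.14 and 0.05 ± 0.15, Atg5 0.11 ± 0.09 and −0.16 ± 0.09, and Map1lc3b −0.28 ± 0.13 and 0.05 ± 0.14. Tfeb, at −0.35 ± 0.26 and −0.19 ± 0.26, and Ulk1, at 0.51 ± 0.53 and −0.52 ± 0.53, had wider errors.

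The wide errors of Ulk1, Ulk2, Map1lc3a and Rb1cc1 went with a split of the fasted mice that these genes shared. Ulk2, Map1lc3a and Rb1cc1 were picked for description after their values had been seen. Ulk2, the sister kinase of ULK1, was at 28.6, 34.9, 24.6, 6.203 and 4.17 CPM in fasted control mice 1 to 5, and at 6.06, 6.19, 7.09, 42.8, 39.7 and 44.3 CPM in fasted DT mice 6 to 11. The 6 mice with high Ulk2 (1, 2, 3, 9, 10 and 11) were the same 6 that had the highest fasted levels of Ulk1, 17.2 to 53.9 CPM against 7.59 to 11.9 CPM in the other 5. They also had the 6 highest fasted levels of Map1lc3a and of Rb1cc1. The split cut across control and DT mice. Refed mice did not share it in the same way. Ulk2 was highest in refed control mice 18 (29.3 CPM) and 19 (31.2 CPM) and in refed DT mouse 17 (28.4 CPM). Map1lc3a was highest in refed DT mouse 13. Rb1cc1 was highest in refed control mouse 21 (48.1 CPM), where Ulk2 was at 5.56 CPM. To see whether the split extended beyond these genes, the leading component of the within-group variation was computed from the 14020 tested genes outside the list. This component held 29.2% of that variation. Along it lay 89.4% of the within-group variance of Ulk2, 79.9% of that of Ulk1, 76.3% of Map1lc3a and 64.8% of Rb1cc1. Atg3 (43.6%), Atg2b (36.4%) and Wipi2 (21.7%) came next. The median was 2.77% for the 44 genes and 3.97% for all genes. Of all genes tested, 1237 (8.80%) exceeded 50%. Of the 44 genes, 4 did (Ulk2, Ulk1, Map1lc3a and Rb1cc1), a share near that of all genes. The labels give no batch that follows it. With 1 surrogate variable as a covariate, an alternative added after this was seen, the feeding value of Ulk1 was −0.82 ± 0.25 (adjusted p = 0.0203) in control mice and −1.24 ± 0.23 (adjusted p = 0.000477) in DT mice. Both were then called lower. In the same fit Atg3 stayed called higher, at 0.62 ± 0.16 (adjusted p = 0.00614) in control and 0.77 ± 0.14 (adjusted p = 0.000499) in DT mice. Wipi2 stayed called lower in control mice (−0.73 ± 0.20, adjusted p = 0.00988) and not called in DT mice (−0.46 ± 0.18, adjusted p = 0.0632). The surrogate variable was estimated from the tested genes, Ulk1 among them, so these calls are no independent evidence.

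**Figure D5:**
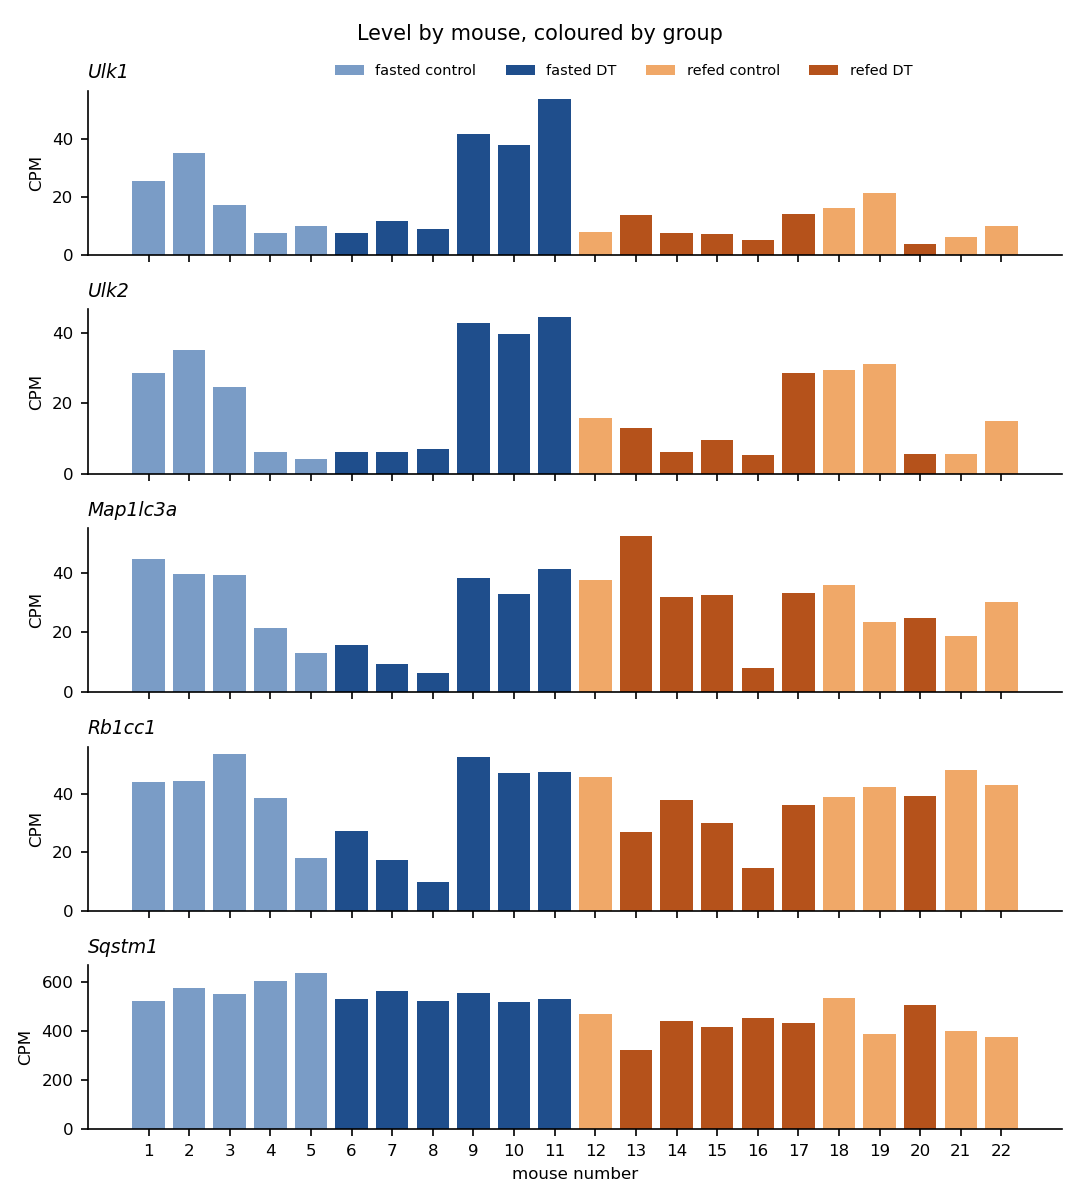
Level in CPM (y axis, from 0) of Ulk1, Ulk2, Map1lc3a, Rb1cc1 and Sqstm1 in each of the 22 mice by mouse number (x axis), bars coloured by group. Mice 1, 2, 3, 9, 10 and 11 are high among fasted mice for the upper 4 genes, and the Sqstm1 bars of fasted mice are of similar height.

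Around the machinery lie the genes that regulate it and the lysosome that receives its cargo, and 86 of them in 8 lists were looked up in the same fit. In control mice 8 (9.3%) rose and 17 (19.8%) fell after refeeding, beside 10.9% and 12.3% of all genes. In DT mice 10 (11.6%) rose and 22 (25.6%) fell, beside 10.8% and 13.5%, so that the rising share was near that of all genes. The counts of the single lists below are to be read beside the same shares of all genes. The median log2 fold changes of the 86 were −0.09 and −0.07 against −0.04 and −0.06 over all genes. For DT against control 0 of the 86 passed in fasted and 0 in refed mice, with 6 and 11 at an unadjusted p under 0.05, and 0 passed for the interaction, with 2. Of the 18 genes of amino acid sensing at the lysosome, 5 fell and 2 rose in control mice, and 4 fell and 1 rose in DT mice. The smallest p there was that of Sesn2, a leucine sensor that restrains mTORC1, at log2 −1.39 ± 0.16 (adjusted p = 5.18e-06) in control and −0.97 ± 0.15 (adjusted p = 6.92e-05) in DT mice. Sesn1 and Fnip2 fell in both as well. Rheb, the GTPase that activates mTORC1, rose in both (0.51 ± 0.09, adjusted p = 0.000451; 0.43 ± 0.08, adjusted p = 0.000885). It was the single call among the 9 genes of mTORC1 and its brakes in control mice, and Tsc2 fell beside it in DT mice.

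Receptors for selective autophagy outside the 44 genes went both ways. Of 8 mitophagy genes, 4 fell and 1 rose in control mice and 3 fell in DT mice, where the smallest p was that of the receptor gene Bnip3l (−0.67 ± 0.11, adjusted p = 0.000138). Ncoa4, the receptor that delivers ferritin iron stores, had the smallest p of its list of 10 selective receptors and rose in both (0.89 ± 0.10, adjusted p = 3.24e-06; 0.67 ± 0.09, adjusted p = 1.64e-05). In control mice it was the single call of that list, and in DT mice 3 rose and 2 fell. Of 8 modulators of the PI3-kinase and of membrane supply, 1 rose and 1 fell in control mice, and 2 rose and 1 fell in DT mice. Bcl2l1, whose product Bcl-xL binds and restrains Beclin 1, fell in both (−0.69 ± 0.13, adjusted p = 0.000417; −0.62 ± 0.11, adjusted p = 0.000479). Bcl2, its relative that also binds Beclin 1, rose in DT mice (2.18 ± 0.69, adjusted p = 0.0248). It was picked after its value was seen. Its level was very low, with means of 0.452 CPM in fasted and 2.03 CPM in refed DT mice. In control mice, where it was not called, the means were 0.487 CPM fasted and 1.74 CPM refed. Averaged over both treatments Bcl2 was called higher (2.00 ± 0.51, adjusted p = 0.00349).

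Of 14 genes for fusion with the lysosome, 3 fell and 1 rose in control mice and 5 fell in DT mice; the smallest p belonged to Vps16 (−0.56 ± 0.13, adjusted p = 0.00391) in control and Vps41 (−0.50 ± 0.09, adjusted p = 0.000256) in DT mice, both subunits of the tether that docks vesicles to lysosomes. Of 12 lysosomal genes known as TFEB targets, 4 fell and 1 rose in control mice and 5 fell and 1 rose in DT mice. The proton pump subunit gene Atp6v0d1 rose in both (0.45 ± 0.09, adjusted p = 0.00146; 0.35 ± 0.09, adjusted p = 0.00475), while Hexa, a lysosomal hexosaminidase, fell in both (−0.65 ± 0.15, adjusted p = 0.00269; −0.60 ± 0.13, adjusted p = 0.00235). Of the 7 genes of AMPK and its activator kinase, 0 passed in control mice, with 2 at an unadjusted p under 0.05. In DT mice 2 rose and 1 fell, with Prkab1 at 0.39 ± 0.10 (adjusted p = 0.00819).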

How the data were processed

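Per the labels, RNA was taken from sorted β-cells with a micro column kit, cDNA was made with a SMARTer low-input kit, and Nextera XT libraries were read as single-end 100-base reads on a HiSeq4000. The deposited values are read counts per gene symbol, 1 column per mouse; the submitters' processing notes name STAR 2.7.2b, HTSeq 0.9.1, DESeq2 1.28.1 and build GRCm38.p6, and the strand setting and annotation release are not given in the sources used here. Counts were analysed as deposited in R 4.3.3 with edgeR 4.0.16: filterByExpr by group, TMM scaling, a mean for each of 4 groups over all 22 mice, robust quasi-likelihood F tests for 7 comparisons and Benjamini-Hochberg adjustment over 14064 genes at 0.05. Levels are CPM on TMM-scaled library sizes; standard errors come from the F statistic. The steps were tested on simulated counts, drawn for each gene on its own. Those counts held no split of mice shared between genes, so the test does not cover the one described above. There were 0 columns of no mouse.

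The members, lists and alternatives were chosen with earlier results of these data known. Named are members called in any comparison, the 3 with the smallest p in each, and the landmarks Ulk1, Becn1, Atg9a, Atg5, Atg16l1, Map1lc3b, Gabarapl1, Sqstm1, Tfeb and Tfe3; of other pathway genes, the call with the smallest p of each list, beside a few chosen after their values were seen (Sesn1, Fnip2, Tsc2, Bcl2); 1 such call is not reported here. Alternatives were DESeq2 size factors, no filter on low counts, DESeq2 1.42.0, limma voom (limma 3.58.1), leaving out each mouse or refed DT mice 13 and 20, an acinar covariate, only the compared groups, and 1 surrogate variable (sva 3.50.0; added after the data had been seen). Gene positions and promoters are from RefSeq and exon lengths and overlaps from GENCODE M21, both on the same build; near-identical copies were sought with blastn 2.17.0. Duplicated reads are counted as they stand, since no molecular identifiers were used.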

Additional observations from a re-analysis of the deposited data

Results flagged for a closer look

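For each of the 30 named genes and 4 groups, the highest and the lowest mouse were compared with the rest of their group by Dixon's criterion at the 95% level. Of the 120 tests 8 were met, and chance meets about 1 in 20 of such tests. Mouse 13 accounted for 4 of the 8.

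In refed DT mouse 13, Atg16l1 (15.8 CPM, others 40.1 to 49.1), Becn1 (41.0 CPM, others 64.4 to 73.1) and Tax1bp1 (68.7 CPM, others 116 to 136) lay below the rest of the group, and Atg9a (24.6 CPM, others 12.6 to 16.03) lay above it. In refed DT mouse 20, Optn was at 22.9 CPM against 6.22 to 11.7 in the others. In refed control mouse 12, Map1lc3b was at 99.6 CPM against 77.1 to 82.6. Among fasted control mice, Ulk3 was at 32.9 CPM in mouse 3 (others 15.96 to 20.8) and Vmp1 at 52.6 CPM in mouse 2 (others 36.6 to 40.4).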

How the results depend on the processing

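No paired analysis was possible because each mouse number occurs once and no number links mice of different groups. Of the calls named in the 2 feeding comparisons, 13 of 16 in control and 11 of 18 in DT mice stayed in every fit that left out a mouse and under every other setting; the mice on which the others rested are named beside their values. With no filter on low counts, and so more genes tested, the calls lost were Atg9a and Tax1bp1 in control mice, Atg12, Atg4a, Atg9a, Pik3c3, Sqstm1 and Ulk1 in DT mice, and Optn and Ulk1 in the average. For refeeding in DT mice, the Atg9a call was also lost with DESeq2 size factors and in DESeq2, and the Atg4a call in limma voom. With only the 2 groups compared, the DT calls of Atg12, Atg4a, Atg9a and Pik3c3 were lost. Counts of called members in the feeding comparisons under other settings ranged over 14 to 21 in control mice, 12 (without the filter on low counts) to 21 in DT mice, and 20 to 26 for their average. The DT count in fasted mice was 1 and became 0 with DESeq2 size factors, with no filter, with 1 surrogate variable and with only the 2 groups compared. The DT count in refed mice was 0 and became 2 without mice 13 and 20. The average DT count was 1, and became 0 with no filter and 2 without mice 13 and 20. The cause was not tested. The fits that left out 1 mouse gave 0 to 1 for DT in fasted, 0 to 1 for DT in refed (1 without mouse 20) and 0 to 1 for the average DT effect, 13 (without mouse 19) to 21 (without mouse 13) for refeeding in control, 14 (without mouse 7) to 19 (without mouse 8 or 13) in DT mice, 21 to 24 for their average, and 0 in each for the interaction. No called value changed sign in any setting run. Each member had at least 37 counts in every library, the lowest being Tfeb.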
